A study of Mus musculus with 8 samples.

Results

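FOXO transcription factors and genes that they are known to control were measured in the ventral prostate of mice that carry the middle T antigen of polyoma virus (MT) and of wild-type mice (WT). The set holds 9 genes, chosen by name: the factors Foxo1 and Foxo3, and the target genes Irs2, Ccng2, Gadd45a, Trp53inp1, Sesn1, Txnip and Bcl6. Every probe set that the platform annotation gives to exactly one of these genes was used, which made 20 of the 22626 probe sets that are not controls. The series compares 4 arrays of MT transgenic ventral prostate with 4 arrays of wild-type ventral prostate, all from male FVB mice aged 8 weeks, and asks how normal prostate differs from the carcinoma that the transgene induces. Middle T is a viral membrane protein with no enzyme activity of its own that gathers Src-family kinases, the adaptor Shc and phosphatidylinositol 3-kinase at the cell membrane. The labels name neither the promoter of the transgene nor separate animals for the arrays of a group, so that p-values measure the spread between these arrays, which may be technical.

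FOXO factors bind DNA through a forkhead domain and raise the transcription of genes that halt the cell cycle, counter oxidative stress and adapt metabolism to low insulin. When phosphatidylinositol 3-kinase is active, the kinase Akt phosphorylates FOXO proteins, which then bind 14-3-3 proteins and leave the nucleus. This control acts on the protein, so an array, which measures RNA, does not read the activity of the factors. Several of the targets answer to other factors too: Gadd45a, Trp53inp1 and Sesn1 are also targets of p53, and Txnip is also driven by glucose through the Mondo family of factors.

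The promoters of Txnip and Ccng2 are shown because Ccng2 was higher in MT, 1 of the Txnip probe sets was lower, and the genes differ in the forkhead sequence close to their start. RefSeq promoters of build GRCm38.p6 matched 8 of the 9 genes, with 10 start sites. The 250 bases before each start were searched on both strands for 4 motifs. The forkhead core GTAAACA was found in 1 of these windows, that of Txnip, and in 3.17% of all 32851 promoters in the table. The variant GTAAATA was found in no window of the set and in 2.73% of all promoters. The short form AAACA, which is contained in GTAAACA, occurs in 46.4% of all promoters. In the set it was found before Foxo1, Txnip, Ccng2, Irs2 and 1 of the starts of Sesn1. It was not found before Foxo3, Gadd45a or Bcl6. Whether these motifs go with the direction of change was not tested. The paired carbohydrate response motif, a pair of CACGNG with 5 bases between them, as bound by Mondo factors, was found in Txnip and in 0.0457% of all promoters. In Txnip, at chr3:96557707-96557956 on the plus strand, capitals mark the forkhead core, which starts 121 bases before the transcription start, and the fixed letters of the paired motif, which starts 85 bases before it. In Ccng2, at chr5:93267323-93267572 on the plus strand, capitals mark 2 copies of AAACA, which start 14 and 8 bases before the transcription start. A match is a description of the letters and not a binding site.
Txnip: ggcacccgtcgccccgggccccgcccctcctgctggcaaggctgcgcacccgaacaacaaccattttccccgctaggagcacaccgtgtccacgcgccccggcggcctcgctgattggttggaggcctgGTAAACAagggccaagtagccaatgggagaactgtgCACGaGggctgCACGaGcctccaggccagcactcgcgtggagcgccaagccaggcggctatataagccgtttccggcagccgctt
Ccng2: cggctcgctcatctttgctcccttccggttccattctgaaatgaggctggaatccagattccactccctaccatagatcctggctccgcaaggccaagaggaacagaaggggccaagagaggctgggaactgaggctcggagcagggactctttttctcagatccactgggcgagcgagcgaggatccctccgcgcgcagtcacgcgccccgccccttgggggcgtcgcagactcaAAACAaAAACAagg

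Values are on the log2 scale of RMA, and differences are MT minus WT, given with the standard error of a limma fit over all probe sets. The threshold was an adjusted p of 0.05 by the Benjamini-Hochberg method. Arrays correlated across probe sets at 0.996 to 0.997 within MT, at 0.992 to 0.994 within WT and at 0.968 to 0.973 between groups. The difference between the 3′ and 5′ control probe sets, a measure of RNA quality, ran from 0.45 to 0.64 in MT and from 0.55 to 0.92 in WT for Gapdh (two-sided exact permutation test, p = 0.0857), and from 0.57 to 0.85 in MT and from 0.71 to 1.05 in WT for Actb (exact p = 0.114). These are bulk samples, in which fewer cells of a type and less RNA per cell cannot be told apart. All 11 measured luminal epithelial markers were above background, with mean levels from 11.48 to 11.62 on the MT arrays and from 11.51 to 11.62 on the WT arrays. Of these markers 9 were higher and 2 lower in MT. Their differences ran from -4.16 to 1.26 with a median of 0.62, so similar mean levels do not mean unchanged markers. All 10 measured smooth muscle markers were lower in MT (mean level 8.24 to 9.08 in MT, 9.29 to 10.02 in WT), as were 8 of 11 fibroblast markers with 1 higher (7.96 to 8.42 in MT, 8.58 to 9.30 in WT). Of 10 macrophage markers 5 were higher and 1 lower (6.96 to 7.13 in MT, 6.32 to 6.82 in WT), and 13 of 14 proliferation genes were higher (6.99 to 7.13 in MT, 5.46 to 5.78 in WT). Of 10 lymphocyte markers 5 were higher (5.58 to 6.24 in MT, 4.86 to 5.08 in WT) and of 6 granulocyte markers 3 were higher (5.53 to 5.98 in MT, 4.59 to 4.70 in WT). Of 5 adipocyte markers 4 were lower (4.98 to 5.91 in MT, 5.47 to 7.67 in WT), of 7 basal epithelial markers 4 were lower and 1 higher, and of 9 endothelial markers 1 was lower. MT array 2 and WT array 4 had the highest mean adipocyte level of their groups, and MT array 2 also the highest mean lymphocyte level, so results are also given without both. The part of these shifts in the FOXO results was not tested. Of 5 measured seminal vesicle markers 0 passed the threshold, and 2 lay at background on all arrays.

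The genes Foxo3, Ccng2, Gadd45a and Trp53inp1 were all higher in MT, by 1.85 to 2.56 times on the main probe set of each gene, the one with the highest mean over the arrays. By that probe set, 4 of the 9 genes were higher and 0 lower (44.4% higher, against 19.3% of all 12393 genes). The share called in either direction was 44.4%, against 40.0% of all genes. The median difference was 0.46, against -0.01 over all genes. That median is the value of Bcl6, which did not pass the threshold (limma, adjusted p = 0.105). Without WT array 1 the Bcl6 difference was 0.24. In the same limma fit the main probe set of Txnip was lower and that of Bcl6 higher at an unadjusted p under 0.05. Of the 20 probe sets, 11 passed the threshold, beside 37.8% of all probe sets, with 8 higher and 3 lower in MT, while 18.1% of all probe sets were higher and 19.7% lower. The median over the 20 was 0.03, against -0.01 over all probe sets. The groups did not overlap at 10 of the 20 probe sets, and the same held for 37.5% of all probe sets. Probe sets of 1 gene are not independent of each other. All 20 lay above every bacterial control probe set on every array, a background of 12 control probe sets that ran from 2.57 to 3.90.

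**Figure D1:**
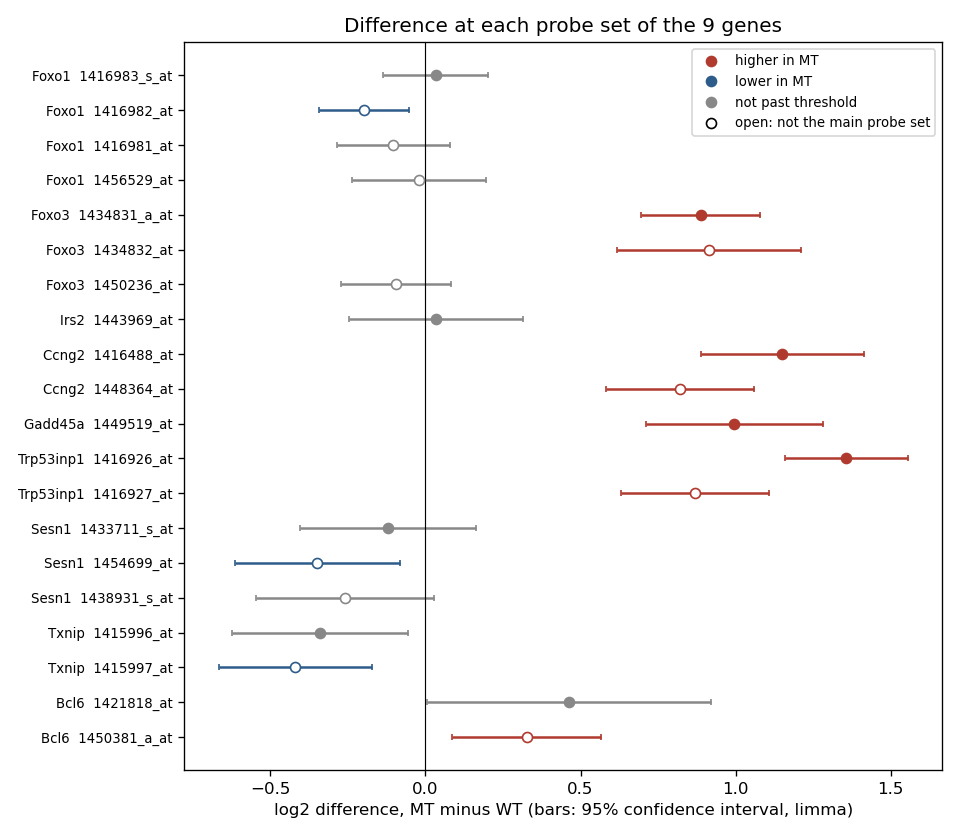
Log2 difference, MT minus WT, at each of the 20 probe sets (points; bars are 95% confidence intervals of the limma fit), with filled points for the main probe set of a gene. The probe sets of Ccng2, Gadd45a and Trp53inp1 and 2 of the 3 of Foxo3 lie between 0.82 and 1.36, while those of Foxo1, Irs2, Sesn1 and Txnip lie between -0.42 and 0.03.

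Foxo3, a FOXO factor known for driving genes of growth arrest and cell death, was higher in MT at 2 of its 3 probe sets. Probe set 1434831_a_at read 9.34, 9.30, 9.40 and 9.58 on the MT arrays, against 8.45, 8.46, 8.72 and 8.44 on the WT arrays. Every MT array was above every WT array, and the difference was 0.89 ± 0.09, or 1.85-fold (adjusted p = 1.445e-05). Probe set 1434832_at read 7.72, 7.92, 7.92 and 8.21 in MT, against 6.65, 7.17, 7.22 and 7.07 in WT. The groups again did not overlap (0.91 ± 0.13, adjusted p = 0.00028). The remaining probe set, 1450236_at, read 5.22, 5.05, 4.97 and 4.94 in MT, against 5.26, 5.16, 5.11 and 5.04 in WT. Its groups overlapped, and its difference was -0.10 ± 0.08 (adjusted p = 0.391, 95% confidence interval -0.27 to 0.08). Averaged over the 3 probe sets, Foxo3 was 0.57 higher in MT (adjusted p = 5.914e-05).

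Foxo1, the FOXO factor best known for its answer to insulin in liver, did not pass the threshold on its main probe set. That probe set, 1416983_s_at, read 7.27, 7.16, 7.18 and 7.28 in MT, against 7.24, 7.17, 7.02 and 7.32 in WT. The MT values lay within the range of the WT values (0.03 ± 0.08, adjusted p = 0.776), and the 95% confidence interval ran from -0.14 to 0.20. Probe set 1416982_at read 7.03, 7.07, 7.10 and 6.96 in MT, against 7.25, 7.27, 7.13 and 7.30 in WT. It was lower in MT by a small amount (-0.20 ± 0.07, adjusted p = 0.0341), with no overlap between the groups. Dropping 1 array ended that call for 6 of the 8 arrays (MT arrays 1, 2 and 4 and WT arrays 1, 2 and 4), and the adjusted p then lay between 0.06055 and 0.0984. It was also lost without MT array 2 and WT array 4 together (adjusted p = 0.125). The other Foxo1 probe sets, 1416981_at and 1456529_at, differed by -0.10 ± 0.08 (adjusted p = 0.362) and -0.02 ± 0.10 (adjusted p = 0.895). Foxo4, the remaining measured member of the family, averaged 6.22 ± 0.05 in MT and 6.25 ± 0.15 in WT (SD, n = 4 each) and differed by -0.03 ± 0.08 (adjusted p = 0.832).

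**Figure D2:**
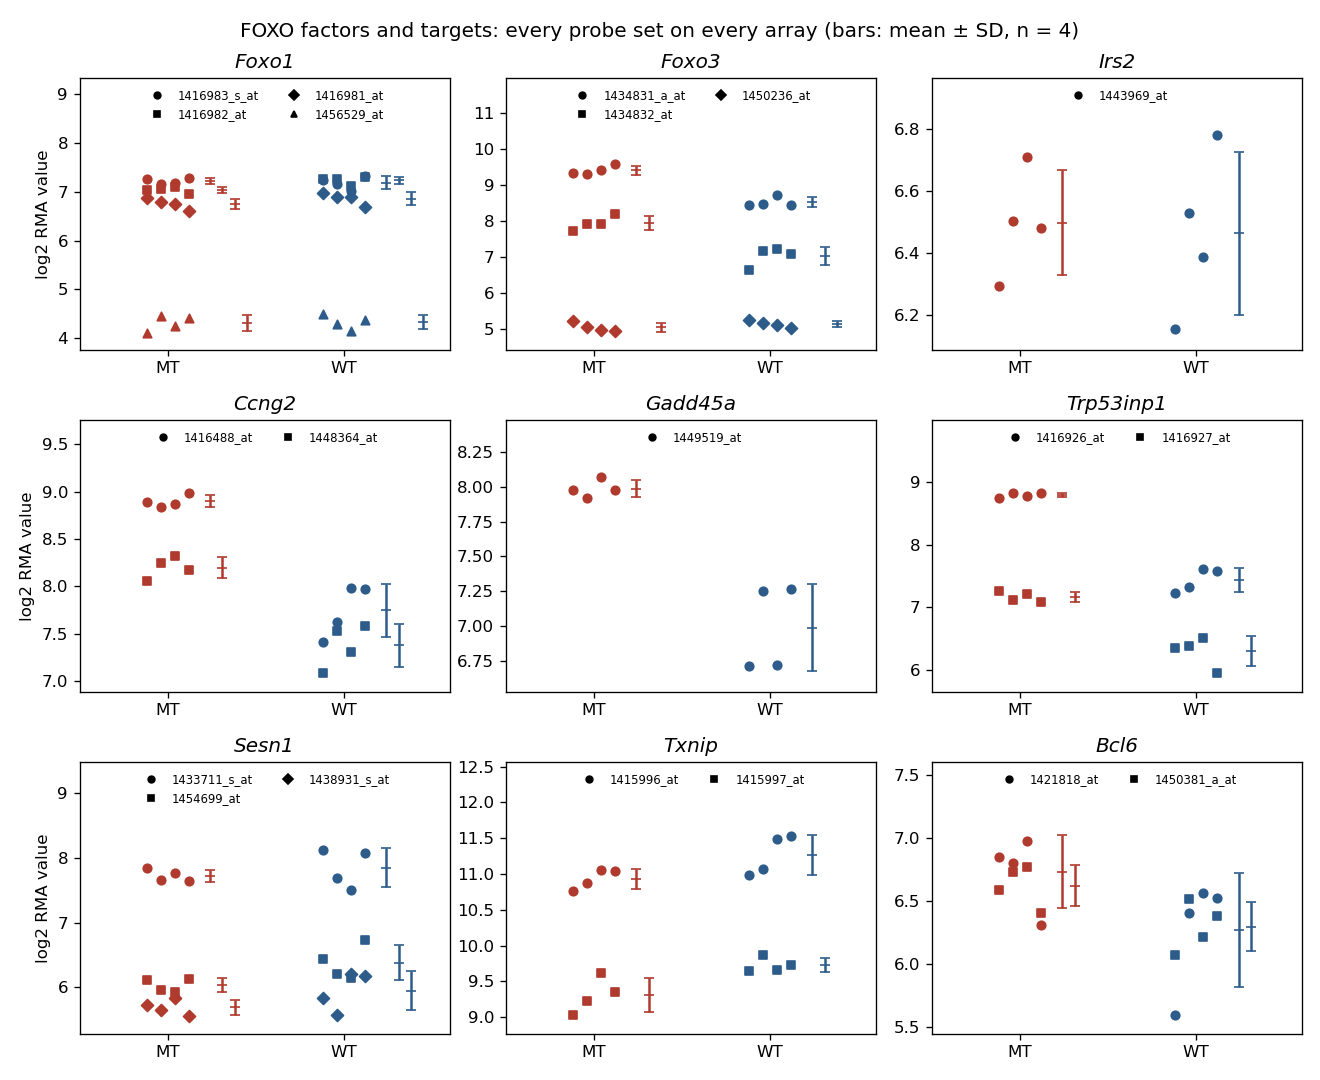
Log2 RMA value of every probe set of the 9 genes on each of the 4 MT arrays (red, left) and the 4 WT arrays (blue, right), with 1 marker shape for each probe set and bars for mean ± SD. The MT points of Ccng2, Gadd45a and Trp53inp1 lie above all WT points of the same probe set, while those of Irs2 lie among them.

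Of the targets that restrain the cell cycle or answer to damage, Trp53inp1, Ccng2 and Gadd45a were higher in MT at every probe set, and Sesn1 was not. Trp53inp1, which encodes a stress-induced nuclear protein that acts with p53 and in autophagy, had the largest difference of the 9 genes. Its main probe set, 1416926_at, read 8.75, 8.82, 8.77 and 8.83 in MT, against 7.23, 7.33, 7.61 and 7.58 in WT. The MT arrays lay close together and more than 1 unit above every WT array, and the difference was 1.36 ± 0.09, or 2.56-fold (adjusted p = 8.032e-07). The second probe set, 1416927_at, read 7.25, 7.11, 7.21 and 7.08 in MT, against 6.34, 6.39, 6.50 and 5.95 in WT. It moved the same way with no overlap (0.87 ± 0.11, adjusted p = 9.039e-05).

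Ccng2 encodes cyclin G2, an unusual cyclin that slows the cell cycle and whose transcription FOXO factors raise. Its main probe set, 1416488_at, read 8.90, 8.84, 8.87 and 8.99 in MT, against 7.41, 7.63, 7.98 and 7.97 in WT. The difference was 1.15 ± 0.12, or 2.22-fold, with every MT array above every WT array (adjusted p = 2.256e-05). The second probe set, 1448364_at, read 8.05, 8.24, 8.32 and 8.17 in MT, against 7.09, 7.53, 7.31 and 7.58 in WT. It gave 0.82 ± 0.11 (adjusted p = 0.000134), again without overlap. The paralog Ccng1, cyclin G1, a target of p53, averaged 10.04 ± 0.08 in MT and 10.01 ± 0.22 in WT (SD, n = 4 each) and differed by 0.03 ± 0.10 (adjusted p = 0.844). Averaged over its probe sets, Ccng1 was 0.18 higher in MT (adjusted p = 0.0338).

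Gadd45a encodes a small protein that binds PCNA and cyclin-dependent kinase 1 and halts the cell cycle after DNA damage. Its single probe set, 1449519_at, read 7.98, 7.92, 8.07 and 7.98 in MT, against 6.71, 7.25, 6.72 and 7.27 in WT. The WT arrays fell into a lower and a higher pair, and all 4 were below the MT arrays (1.00 ± 0.13, 1.99-fold, adjusted p = 0.000123). Of its paralogs, Gadd45b was higher in MT (1.09 ± 0.10, adjusted p = 6.407e-06, and 0.61 averaged over its probe sets). Gadd45g, named after its values were seen, differed by -0.05 ± 0.09 (adjusted p = 0.701). The background shares for a rise of at least 2-fold past the threshold were 2.56% of all probe sets and 2.82% of all genes, and the main probe sets of Trp53inp1 and Ccng2 were among them. In the same arrays 13 of 14 proliferation genes were higher.

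The targets with roles in redox balance, nutrient sensing and insulin signalling had small differences, and none of their probe sets was higher in MT past the threshold. Txnip encodes a protein of the arrestin family that binds thioredoxin and lowers glucose uptake. Its main probe set, 1415996_at, read 10.76, 10.87, 11.05 and 11.04 in MT, against 10.98, 11.08, 11.49 and 11.53 in WT. The groups overlapped, and the difference of -0.34 ± 0.13 did not pass the threshold (adjusted p = 0.0595). The second probe set, 1415997_at, read 9.04, 9.23, 9.62 and 9.35 in MT, against 9.65, 9.87, 9.66 and 9.73 in WT. All MT arrays were below all WT arrays there, and it passed (-0.42 ± 0.11, 0.748-fold, adjusted p = 0.012). The call was lost without MT array 2 and WT array 4 together (adjusted p = 0.0637). Averaged over both probe sets, Txnip was lower in MT (-0.38, adjusted p = 0.0108). Arrdc4, a relative of Txnip that Mondo factors also induce, was higher in MT (1.41 ± 0.14, adjusted p = 1.394e-05). Its values averaged 7.56 ± 0.19 in MT and 6.15 ± 0.28 in WT (SD, n = 4 each).

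Sesn1 encodes sestrin 1, a stress-induced protein that restrains the kinase complex mTORC1. Its main probe set, 1433711_s_at, read 7.84, 7.67, 7.76 and 7.64 in MT, against 8.12, 7.69, 7.51 and 8.08 in WT. The MT arrays lay within the range of the WT arrays (-0.12 ± 0.13, adjusted p = 0.507, 95% confidence interval -0.41 to 0.16). Probe set 1454699_at read 6.12, 5.96, 5.92 and 6.13 in MT, against 6.44, 6.20, 6.15 and 6.74 in WT. It was lower in MT without overlap (-0.35 ± 0.12, adjusted p = 0.0412). Dropping 1 array ended that call for 6 of the 8 arrays (each MT array and WT arrays 1 and 4), and the adjusted p then lay between 0.0545 and 0.107. Without MT array 2 and WT array 4 together the difference was -0.20 (adjusted p = 0.175). Probe set 1438931_s_at differed by -0.26 ± 0.13 (adjusted p = 0.148), and it passed without WT array 2 (adjusted p = 0.0146). Averaged over its 3 probe sets, Sesn1 differed by -0.24 (adjusted p = 0.0735).

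Irs2, an adaptor that links the insulin receptor to phosphatidylinositol 3-kinase and that FOXO1 raises in liver when insulin is low, had a single probe set, 1443969_at. It read 6.30, 6.50, 6.71 and 6.48 in MT, against 6.16, 6.53, 6.39 and 6.78 in WT. The MT values lay inside the range of the WT values (0.03 ± 0.13, adjusted p = 0.863, 95% confidence interval -0.25 to 0.32). Its paralog Irs1 was lower in MT (-0.38 ± 0.07, adjusted p = 0.0012).

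Bcl6 encodes a zinc finger repressor that FOXO factors induce and STAT5 represses. Its main probe set, 1421818_at, read 6.85, 6.80, 6.97 and 6.31 in MT, against 5.59, 6.40, 6.56 and 6.52 in WT. MT array 4 lay among the WT values, and the difference of 0.46 ± 0.21 did not pass (adjusted p = 0.105). It passed without MT array 4 (0.60, adjusted p = 0.0465). Without WT array 1, the lowest of its group, it was 0.24. The second probe set, 1450381_a_at, read 6.58, 6.73, 6.76 and 6.41 in MT, against 6.07, 6.52, 6.21 and 6.38 in WT. It was higher in MT (0.33 ± 0.11, adjusted p = 0.0355) although the groups overlapped. Dropping 1 array ended that call for 5 of the 8 arrays (MT arrays 1, 2 and 3 and WT arrays 1 and 3), and the adjusted p then lay between 0.0601 and 0.102. It was also lost without MT array 2 and WT array 4 together (adjusted p = 0.104). Of 8 measured regulators and targets of Bcl6, 3 were higher and 2 lower in MT, beside 40.0% of all genes called. Unique-type probe sets are those with no letter before the final _at of their names. Counts by them hold fewer genes, only those whose main probe set is of that type. In this list 0 were lower by that count, because Stat5a and Stat5b were left out and not retested. Stat5a (-0.61 ± 0.17) and Stat5b (-0.59 ± 0.07) were lower. Stat3 (0.53 ± 0.08), and the genes Socs2 (2.22 ± 0.12) and Ccnd2 (0.43 ± 0.09), both known targets of Bcl6, were higher. The adjusted p of these 5 ran from 2.272e-07 to 0.0152. Averaged over probe sets, the differences were 0.31 for Stat3, 0.25 for Ccnd2 and -0.34 for Stat5b. The Stat5a call was lost without MT array 2 and WT array 4 together (adjusted p = 0.0913).

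Whether probe sets of 1 gene moved unequally was tested over 16 pairs with a two-sided exact permutation test, whose smallest p is 0.0286. After adjustment over the pairs 0 passed, and 3 reached that smallest p. Those were the 2 pairs that hold Foxo3 probe set 1450236_at, with differences of 0.98 and 1.01 between the changes, and the Foxo1 pair of 1416983_s_at and 1416982_at, with 0.23. Their adjusted p was 0.152. The changes of the Ccng2 probe sets differed by 0.33 (exact p = 0.0857) and those of the Trp53inp1 probe sets by 0.49 (exact p = 0.0857). With 16 pairs this design could pass the threshold only if many pairs reached the smallest p together.

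The spread between arrays was larger in WT than in MT for most probe sets of the set. The SD was larger in WT at 17 of the 20 probe sets (85.0%), while the same held for 67.4% of all probe sets. The median SD of the 20 was 0.11 in MT and 0.23 in WT, against 0.09 in MT and 0.13 in WT over all probe sets. At the main probe set of Trp53inp1 the SD was 0.04 in MT and 0.19 in WT, and at that of Gadd45a it was 0.06 in MT and 0.31 in WT.

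Other genes that FOXO factors are known to control went both ways. Of 32 measured genes in this list, 9 were higher, 7 lower and 16 did not pass, with a median of 0.01. The share called was thus 16 of 32, beside 40.0% of all genes. The largest rises were in Klf6, a zinc finger factor (1.29 ± 0.08), Cdkn1b, the cyclin-dependent kinase inhibitor p27 (1.25 ± 0.12), and Gadd45b. The largest falls were in Klf15, a factor of fasting metabolism (-1.63 ± 0.09), Rbl2, the retinoblastoma relative p130 (-1.06 ± 0.07), and Eif4ebp1, a brake on cap-dependent translation (-0.91 ± 0.07). The adjusted p of these 6 ran from 3.203e-07 to 1.117e-05. Among genes of the list whose main probe set is of the unique type, 4 were lower. Rbl2 and Eif4ebp1 have main probe sets of other types, so they were left out there and not retested. Their omission is not the whole fall from 7, because a gene that was retested lost its call. Of the lower genes, Prdx3 lay nearest the threshold as reported (-0.20 ± 0.07, adjusted p = 0.04997). Of the 32 genes, 2 lay at background on all arrays.

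**Figure D3:**
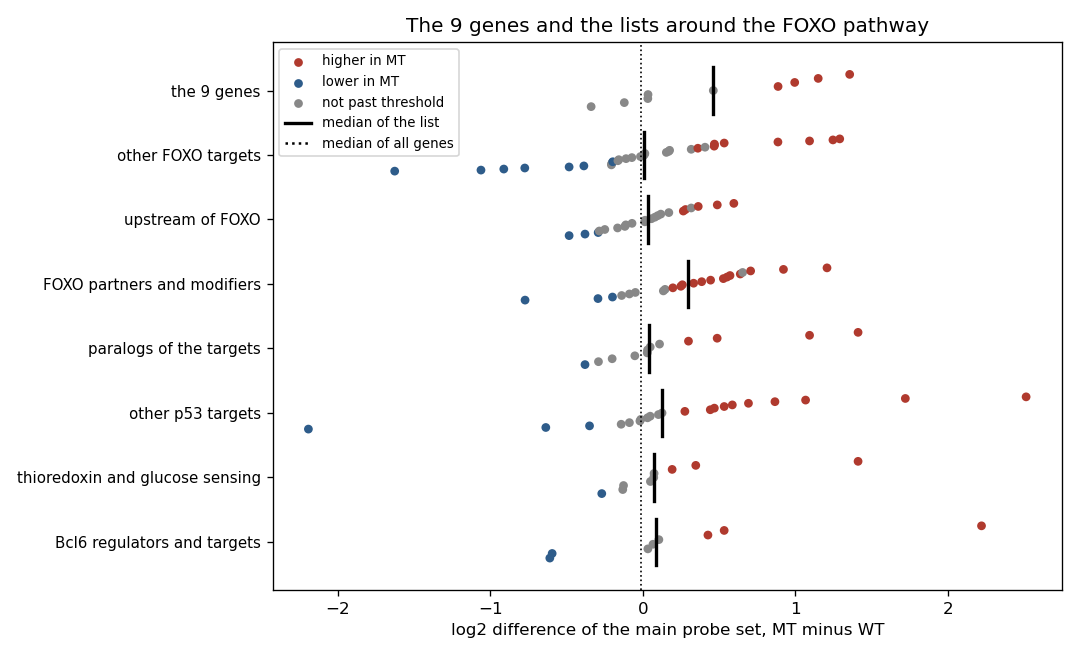
Log2 difference, MT minus WT, of the main probe set of each gene (points) for the 9 genes and for 7 lists around the FOXO pathway, with a bar at the median of each list and a dotted line at the median of all genes. The FOXO partners and modifiers have a median of 0.30, and the other FOXO targets run from -1.63 to 1.29 with a median of 0.01.

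Of 22 measured receptors, adaptors, kinases and phosphatases upstream of the FOXO factors, 5 were higher and 3 lower, beside 40.0% of all genes called, with a median of 0.04 and a range from -0.48 to 0.60. The inositol 5-phosphatases Inpp5d and Inppl1, which break down the product of phosphatidylinositol 3-kinase, were higher by 0.60 ± 0.11 and 0.49 ± 0.08, and the docking protein Gab1 by 0.36 ± 0.07. Inpp5d is known chiefly from blood cells. Of 10 macrophage markers in the same arrays 5 were higher and 1 lower, beside 40.0% of all genes called. Any link between Inpp5d and the mix of cells was not tested. The receptor Igf1r (-0.48 ± 0.08), Irs1 (-0.38 ± 0.07) and the kinase Mtor (-0.29 ± 0.06) were lower. The adjusted p of these 6 ran from 0.000447 to 0.00312. Akt1 differed by 0.12 ± 0.07 (adjusted p = 0.195) and the catalytic subunit Pik3ca by 0.01 ± 0.07 (adjusted p = 0.9). The kinases Akt2 (0.28 ± 0.07, adjusted p = 0.0121) and Src (0.27 ± 0.09, adjusted p = 0.0346), named after their values were seen, were higher. Averaged over probe sets, the differences were 0.28 for Inpp5d, 0.21 for Gab1, -0.30 for Igf1r, -0.16 for Mtor and 0.14 for Pik3ca. Among genes of the list whose main probe set is of the unique type, 1 was higher, Gab1. Inpp5d, Inppl1, Akt2 and Src have main probe sets of other types, so they were left out there and not retested.

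Of 22 measured genes whose products bind or modify FOXO proteins, 13 were higher and 3 lower, with a median of 0.30, beside 19.3% of all genes higher and 20.7% lower. Among genes of the list whose main probe set is of the unique type, 5 were higher and 2 lower. Genes with a main probe set of another type, Skp2, Ywhaz and Sirt2 among them, were left out there and not retested. The list holds Mst1, a secreted factor that shares its name with an alias of the FOXO kinase Stk4, and which did not pass. The 14-3-3 protein Sfn was higher by 1.21 ± 0.12, the ubiquitin ligase subunit Skp2, which marks FOXO1 for breakdown, by 0.92 ± 0.12 and the 14-3-3 protein Ywhaz by 0.71 ± 0.13. The 14-3-3 protein Ywhah (-0.77 ± 0.08), the deacetylase Sirt2 (-0.29 ± 0.07) and the kinase Mapk8 (-0.20 ± 0.07) were lower. Adjusted p-values ran from 1.334e-05 to 0.041. Averaged over its probe sets, Skp2 differed by 0.55. The Mapk8 call was lost with its probe sets averaged (-0.12, adjusted p = 0.174). It was also lost on dropping 1 of 5 arrays (MT arrays 2, 3 and 4 and WT arrays 1 and 3), with the adjusted p between 0.056 and 0.114.

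Targets of p53 outside the set, some of which FOXO factors also control, were higher for 10 and lower for 3 of 21, beside 19.3% of all genes higher and 20.7% lower, with a median of 0.13. Plk2, a polo-like kinase (2.51 ± 0.12), Pmaip1, which encodes the death protein Noxa (1.72 ± 0.12, with 1 WT array at background), and Ckap2, a spindle protein (1.07 ± 0.08), were higher. Perp, a membrane protein of desmosomes (-2.19 ± 0.08), Rrm2b, a subunit of ribonucleotide reductase (-0.64 ± 0.06), and the death receptor Fas (-0.35 ± 0.09) were lower. The adjusted p of these 6 ran from 1.32e-08 to 0.0101. Mdm2, the feedback inhibitor of p53, chosen after its values were seen, differed by -0.09 ± 0.12 (adjusted p = 0.625).

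Among 12 measured paralogs of the targets, 4 were higher and 1 lower, beside 40.0% of all genes called, with a median of 0.04. Besides Gadd45b and Arrdc4, the arrestin relative Arrdc1 was higher (0.49 ± 0.06, adjusted p = 0.000135). In the thioredoxin and glucose sensing list, 3 of 9 were higher and 1 lower, beside the same background of 40.0%, with a median of 0.07. With probe sets averaged, 1 was higher and 2 lower. Thioredoxin, Txn1, was higher by 0.35 ± 0.08 (adjusted p = 0.00388) and the reductase Txnrd1 by 0.19 ± 0.06 (adjusted p = 0.0324), while the mitochondrial reductase Txnrd2 was lower (-0.27 ± 0.07, adjusted p = 0.00757). Averaged over their probe sets, Txn1 and Txnrd1 did not pass, with differences of 0.14 (adjusted p = 0.0862) and 0.11 (adjusted p = 0.235). The Txnrd1 call was also lost on dropping 1 of 5 arrays (MT arrays 1, 2 and 4 and WT arrays 2 and 3), with the adjusted p between 0.0518 and 0.084.

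Over the 8 arrays, the genes whose main probe sets followed Foxo3 most closely were Dctpp1, Bbc3 and Cenpf, with Pearson correlations of 0.993, 0.992 and 0.991. Each was higher in MT, by 0.60, 0.53 and 1.40 (Cenpf by 0.76 averaged over its probe sets), so the 8 points fall into the same groups as those of Foxo3. These correlations are a description, over arrays that share their groups. For the main probe set of Foxo1, which did not pass the threshold, the closest were Thrap3, Fam20b and Las1l, with correlations of 0.936, 0.914 and 0.906. These are the highest values among 12393 genes over only 8 arrays, and whether they exceed chance was not tested. The differences of these 3 genes, 0.02, 0.09 and 0.07, did not pass, nor did that of Thrap3 averaged over its probe sets (0.12).

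**Figure D4:**
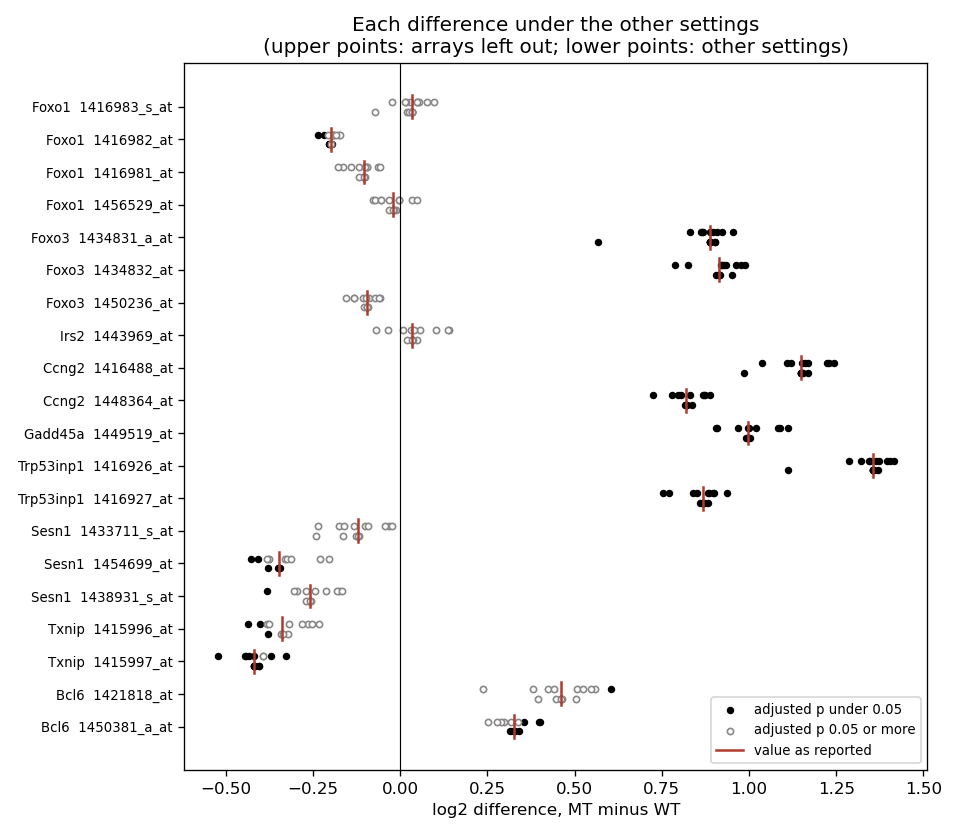
Log2 difference, MT minus WT, of each of the 20 probe sets as reported (red bar) and under the other settings (upper points, arrays left out; lower points, other fits, scalings and choices of probe sets), filled where the adjusted p was under 0.05. The probe sets of Ccng2, Gadd45a and Trp53inp1 stay filled throughout between 0.72 and 1.41, while the smaller differences of Foxo1, Sesn1, Txnip and Bcl6 pass and fail by setting.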

How the data were processed

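The deposited table holds log2 values that the authors made with RMA, per the submitters' processing notes, which name no version. RMA comprises background correction, quantile normalization and probe set summary. It was used as deposited, with array medians from 6.21 to 6.23. Precision is limited by the number of arrays. The platform annotation gave 20380 of 22690 probe sets a single gene symbol, and 20351 of these had a gene identifier in the RefSeq table, which changed 0 symbols. The 64 control probe sets were left out of the tests. MT and WT were compared with limma 3.58.1 (lmFit and eBayes, R 4.3.3) over 22626 probe sets, by two-sided tests without covariates, adjusted by Benjamini-Hochberg, at a threshold of 0.05. The fit was tested on simulated data with independent noise and 200 changed probe sets, while 8552 probe sets passed in these data. That test checks the code and not the calls given here. A gene was counted by its probe set with the highest mean. Exact permutation tests ran over the 70 assignments of arrays to groups.

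The genes, lists and tests were chosen with earlier results of these data known, and some genes stand in several lists. Named genes were all members, the FOXO family, up to 3 rises and 3 falls past the threshold in each pathway list, a few fixed genes, and the 3 genes most correlated with Foxo1 and Foxo3. Of cell type and proliferation lists, counts and mean levels per array are given, and for luminal markers the range of differences, without single genes. Alternatives were other choices of probe sets, leaving out those under the median level, another prior, array weights, renewed scaling, a replicate block, a stricter threshold and arrays left out. Python 3.11.15 and matplotlib 3.10.9 drew the figures.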

Additional observations from a re-analysis of the deposited data

Results flagged for a closer look

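In 3 of the 128 groups of 4 arrays examined, 1 array stood apart from the other 3, by a gap that filled more of the group's range than Dixon's critical value at 95% allows. Chance gives about 1 in 20 such groups. For Foxo3 probe set 1434831_a_at, WT array 3 read 8.72 while the other WT arrays read 8.44 to 8.46, a gap of 0.922 of the range. For Bcl6 probe set 1421818_at, WT array 1 read 5.59 while the others read 6.40 to 6.56, a gap of 0.84 of the range. For Rrm2b, WT array 2 read 8.09 while the others read 8.21 to 8.23, a gap of 0.858 of the range.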

How the results depend on the processing

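Over 19 alternatives, every one that could be computed for the probe set kept the calls of Ccng2, Gadd45a, Trp53inp1 and Foxo3 probe sets 1434831_a_at and 1434832_at. The count of member probe sets lower in MT, 3 as reported, was 1 to 4 when single arrays were left out, 0 without MT array 2 and WT array 4 together and 0 at an adjusted p under 0.01. The count of member genes lower in MT, 0 as reported, was 1 (Txnip) with probe sets averaged, with the filter at the median level and with the replicate block, and 0 to 1 when single arrays were left out. Among unique-type probe sets, of which fewer were tested, 2499 of all probe sets were higher and 2903 lower, against 4089 and 4463 as reported. Differences near 0 changed sign. Averaged over probe sets Foxo1 was -0.0725. Leaving out single arrays gave -0.0232 to 0.0777 for Foxo1 probe set 1416983_s_at, -0.0794 to 0.0492 for 1456529_at, -0.0686 to 0.1394 for Irs2, -0.0989 to 0.0061 for Foxo4, -0.0475 to 0.0953 for Ccng1, -0.0256 to 0.0584 for Pik3ca, -0.0273 to 0.0501 for Thrap3 and -0.0056 to 0.1242 for Las1l. Without MT array 2 and WT array 4 together, Foxo4 was 0.0096 and Pik3ca -0.0412. The cause of these changes was not tested. Arrays with the same number in their titles had deviations from the group means that correlated at 0.078 to 0.164. For 8 of 8 arrays the closest array of the other group was that of the same number. This is a hint from the data and not the design. With the number as a replicate block 4110 probe sets were higher and 4523 lower, Txnip probe set 1415996_at passed (adjusted p = 0.00868) and Foxo1 probe set 1416982_at did not (adjusted p = 0.0666).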
